A study of Mus musculus with 15 samples.

Results

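The Hox genes encode homeodomain transcription factors that give cells their position along the body axis. In the mouse they lie in 4 clusters, Hoxa on chromosome 6, Hoxb on chromosome 11, Hoxc on chromosome 15 and Hoxd on chromosome 2. Genes at corresponding places in the clusters are paralogs and share a number. Genes of low number are used early and anteriorly in the embryo, and genes of high number late and posteriorly. In embryonic stem cells (ESCs) the clusters are classical targets of Polycomb repressive complexes, and many of their CpG-rich promoters carry active and repressive histone marks together. The TET enzymes oxidise methylated cytosine, and TET1 binds CpG-rich promoters and has been tied to both activation and Polycomb-dependent repression. The members were all rows of the deposited gene table whose name is Hox, a cluster letter and a number, and 39 of the 26061 rows met this rule (11 Hoxa, 10 Hoxb, 9 Hoxc and 9 Hoxd genes). No measured value entered the choice.

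RNA was sequenced from E14 cells, a mouse ESC line of the 129/Ola background, grown feeder-free on gelatin in serum with LIF, which keeps ESCs undifferentiated. All 15 libraries came from cells transduced with a pLKO.1 lentivirus that carried a short hairpin RNA (shRNA) and selected with 1 µg/ml puromycin, as the labels state, for 3 days. Total RNA was depleted of rRNA and made into directional libraries. The hairpin was non-targeting in shScr, directed against Tet1 in shTet1 and against Tet2 in shTet2, with 5 libraries per group and a single hairpin for each target. A hairpin lowers its target without removing it, and the labels do not say whether the 5 libraries of a group came from separate infections, so that p-values measure the spread between these libraries only.

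Libraries held 15258291 to 35432425 gene reads, with a median of 21075040. On the variance-stabilised log2 scale of the deposited table, Tet1 lay between 11.93 and 12.41 in shTet1 and between 13.68 and 14.25 in shScr, and Tet2 lay between 11.12 and 11.61 in shTet2 and between 13.15 and 13.52 in shScr. Both targets were therefore lower in all libraries of their knockdown (limma, Benjamini-Hochberg adjusted p = 0.000228 and 3.67e-07). The ESC label was checked on 10 pluripotency genes, which lay between 11.8 and 666 RPKM (reads per kilobase of exon, scaled to 1000000 gene reads, the level per length used throughout). In 4 libraries (shScr replicate 4, shTet1 replicates 3 and 4, shTet2 replicate 4) the 1442 olfactory and vomeronasal receptor genes, which belong to sensory neurons, summed to 53.3 to 63.4 RPM (reads per 1000000 gene reads), against 9.43 to 26.3 RPM in the other 11. Several results below are given with and without these libraries, whereas shares of reads by cluster and position are given only with them.

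Nearly all Hox genes were detected in at least 1 library, and nearly all were close to the limit of detection. The lowest value of the table, 4.25, stands for 0 reads. A total of 38 of the 39 Hox genes rose above it in at least 1 library, 26 did so in at least 5 libraries and 6 in all 15. With a stricter rule of at least 3 reads in at least 5 libraries, 17 genes remained. All Hox genes together took 123 to 584 reads per library, or 4.76 to 17.1 RPM. The median level of the 39 genes was 0.0334 RPKM, and the highest was 0.690, so that all 39 lay below the median of 1.98 over the genes tested. The receptor genes, which ESCs should not use, had a median of 0.00403 on the same scale, and the highest of them had 1.10, above every Hox gene.

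**Figure D1:**
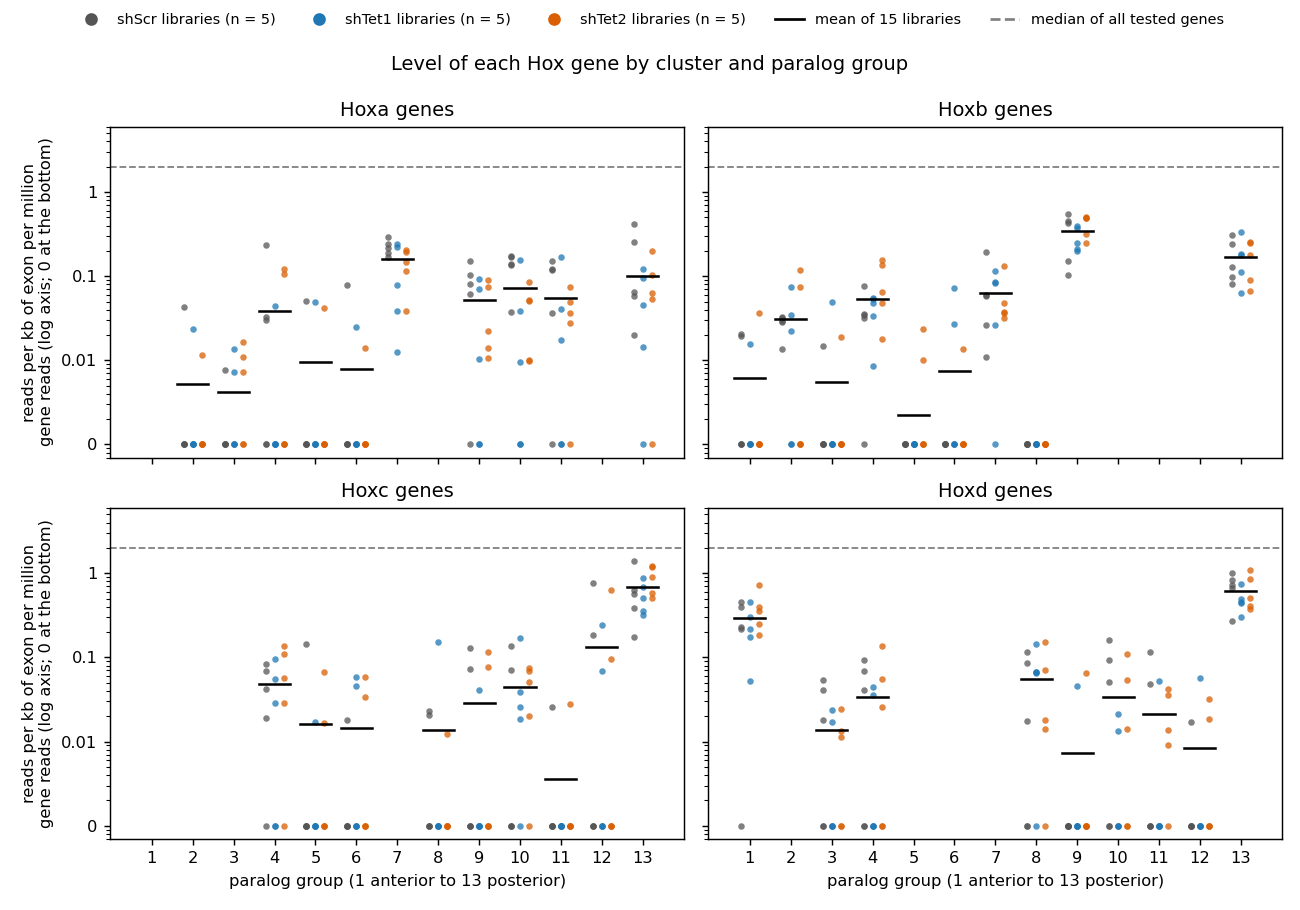
Level of 38 Hox genes (RPKM, log axis with 0 at the bottom) against its paralog number, in a panel for each cluster. Points are libraries, short lines are means of 15 libraries and the dashed line is the median of all tested genes (1.98). Group 13 genes stand highest in the Hoxc and Hoxd panels, but Hoxa13 lies below Hoxa7 and Hoxb13 below Hoxb9. No mean reaches the dashed line.

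Hox RNA was not spread evenly along the clusters. Reads were shared almost equally by the clusters, with 25.4% of the 3128 Hox reads in Hoxa, 20.8% in Hoxb, 24.9% in Hoxc and 28.8% in Hoxd. By position, 63.7% of reads fell in the 16 posterior genes (groups 9 to 13), 19.5% in the 8 anterior genes (groups 1 to 3) and 16.7% in the 15 central genes (groups 4 to 8). The 4 group 13 genes alone held 41.8% of all Hox reads. Per length, the median level was 0.0539 RPKM over the posterior, 0.0164 over the central and 0.00984 over the anterior genes, so that central and anterior genes stood in the other order than by reads. It was 0.391 RPKM over the group 13 genes. Paralogs of an outer group could still differ widely. Hoxd1 had a mean of 0.294, whereas Hoxb1 had 0.00613, from 6 reads in 4 libraries.

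The 8 genes of highest level held 71.9% of the Hox reads. Hoxc13, needed for hair and nail formation, led with 0.690 ± 0.361 RPKM (SD, n = 15 libraries), followed by Hoxd13, a regulator of digit formation, with 0.611 ± 0.254. The thoracic gene Hoxb9 had 0.345 ± 0.144 and Hoxd1 had 0.294 ± 0.179. Below them came Hoxb13, a gene of the tail bud and prostate, with 0.171 ± 0.0895, Hoxa7 with 0.160 ± 0.0857 and Hoxc12 with 0.132 ± 0.243. Hoxc13 and Hoxd13 differed by less than 1 SD of either. Neighbours in the order from Hoxb9 to Hoxc12 differed by less than the larger SD of the pair. Hoxd13 alone had at least 10 reads in all libraries.

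The leading genes had CpG-rich starts. In the 300 bases from 250 before to 50 after the annotated start (mm9, GENCODE), the 8 genes held between 13 and 37 CpGs with a median of 20, and all 8 lay above the median of 11 over 22213 protein-coding genes. Of the other 31 Hox genes, 15 lay above that median. A CpG-rich start did not go with a high level in every gene, since Hoxa4 held 47 CpGs at a level of 0.0382 and Hoxa5 29 at 0.00943. The 30 bases just upstream of 3 starts are shown, with CpGs in capitals, for the highest posterior genes and the gene without a read. They lie at chr15:102751504-102751533 (Hoxc13, plus strand), chr2:74506337-74506366 (Hoxd13, plus) and chr11:96143189-96143218 (Hoxb8, plus) of mm9.
Hoxc13: tggagagagagagagaagggaggagggatg
Hoxd13: gcCGgggccCGggcCGggccaggcCGggcc
Hoxb8: ctttatcaataataaggaaattgatcatta
The stretch of Hoxd13 holds 4 CpGs, and those of Hoxc13 and Hoxb8 hold 0. In their whole windows Hoxd13 held 37, Hoxc13 17 and Hoxb8 13 CpGs.

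At the other end, 13 Hox genes were above the minimum in fewer than 5 libraries and were not tested. They had 0 to 17 reads each and 79 together. Hoxb8 had 0 reads in all 15 libraries, which allows up to 0.0847 to 0.197 RPM per library (3 reads, counting error only). Its call is uncertain in an additional way, since 40.4% of its exonic bases (chromosome 11, 96143219 to 96146639, plus strand) also belong to Hoxb7, which had 87 reads, and reads of the shared bases could have been counted for either. Hoxd3 and Hoxd4 share 29.8% and 67.4% of their exonic bases, and their 27 and 30 reads cannot be told apart over that stretch. Hoxa11 overlaps the antisense gene Hoxa11as over 38.6% of its exonic bases, Hoxb2 overlaps Hoxb3os over 49.4% and Hoxa7 overlaps an antisense transcript over 20.4%. Whether the counting used strand was not given in the sources used here. The bases of Hoxc13, Hoxd13, Hoxb9, Hoxd1, Hoxb13, Hoxc12 and Hoxa10 overlap no other annotated exon on either strand.

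**Figure D2:**
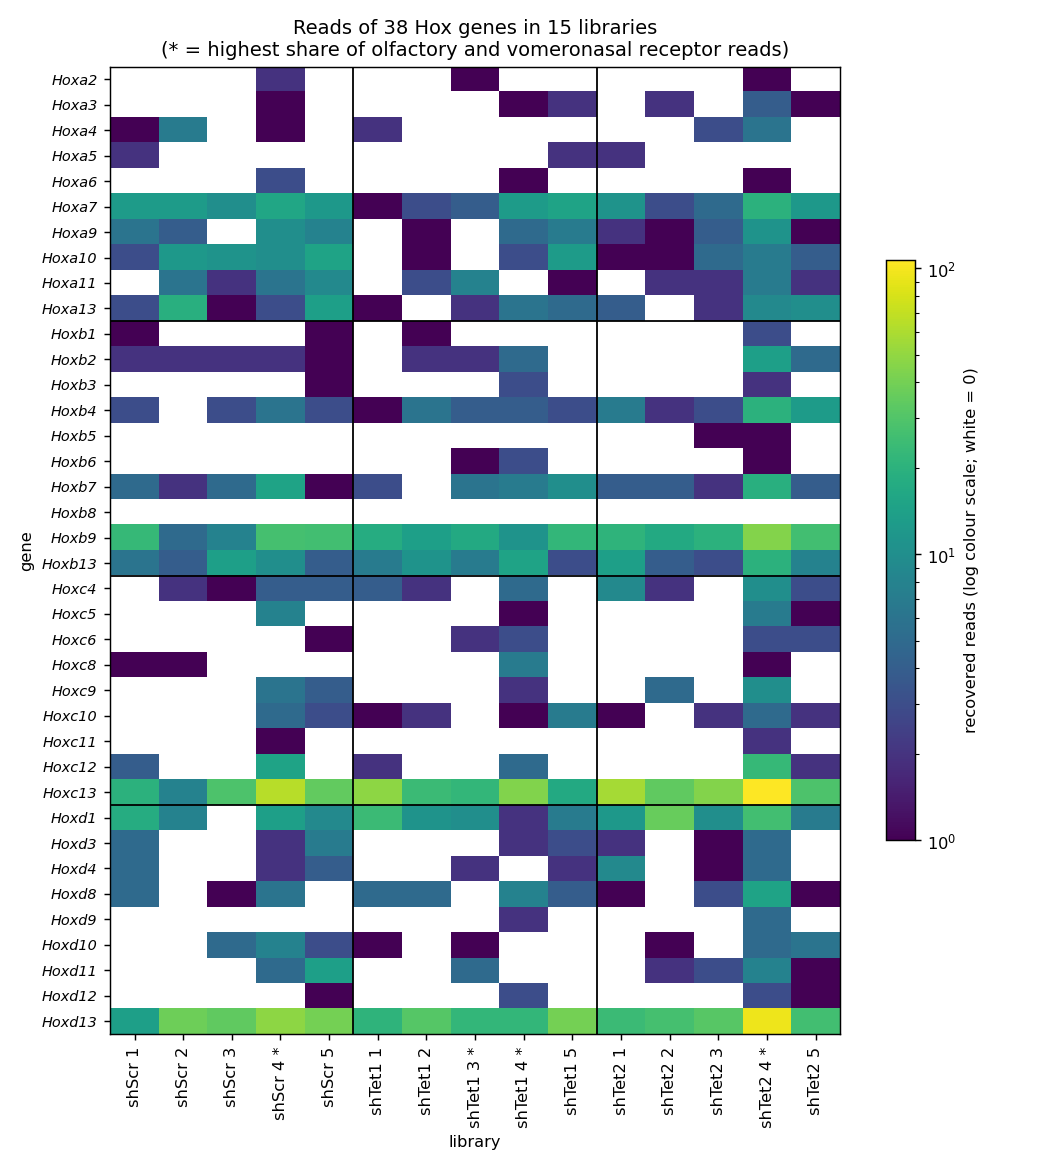
Recovered reads of 38 Hox genes (rows, by cluster and number) in the 15 libraries (columns, by group), on a log colour scale with white for 0. Asterisks mark the 4 libraries of highest receptor share. Replicate 4 of each group shows the most coloured cells (28, 27 and 36 of 38). Reads are not scaled to depth, and shTet2 replicate 4 was the deepest library.

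Libraries differed more in Hox RNA than groups did. The number of Hox genes above the minimum was 21, 16, 15, 29 and 25 in shScr replicates 1 to 5, 16, 16, 18, 28 and 19 in shTet1, and 18, 17, 20, 37 and 24 in shTet2. Replicate 4 had the highest number in each group, and the groups overlapped. These numbers are not scaled to depth. The library with 37 genes, shTet2 replicate 4, was the deepest of all, with 35432425 gene reads. Replicate 4 held 18961606 gene reads in shScr and 20207563 in shTet1. The part of depth in these numbers was not tested. Summed Hox reads were 8.11, 8.56, 6.83, 17.1 and 10.6 RPM in shScr replicates 1 to 5, 5.78, 4.76, 6.96, 10.5 and 8.22 RPM in those of shTet1, and 7.73, 6.10, 10.4, 16.5 and 9.10 in shTet2. Replicate 4 was again highest in each group, and its receptor share was high in all 3 groups. The 4 libraries of high receptor share held 27.1% of all gene reads and 39.8% of all Hox reads, at 13.5 RPM when pooled against 7.61 in the other 11. shTet1 replicate 3, also of high receptor share, did not share this, with 6.96 RPM and 18 genes.

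**Figure D3:**
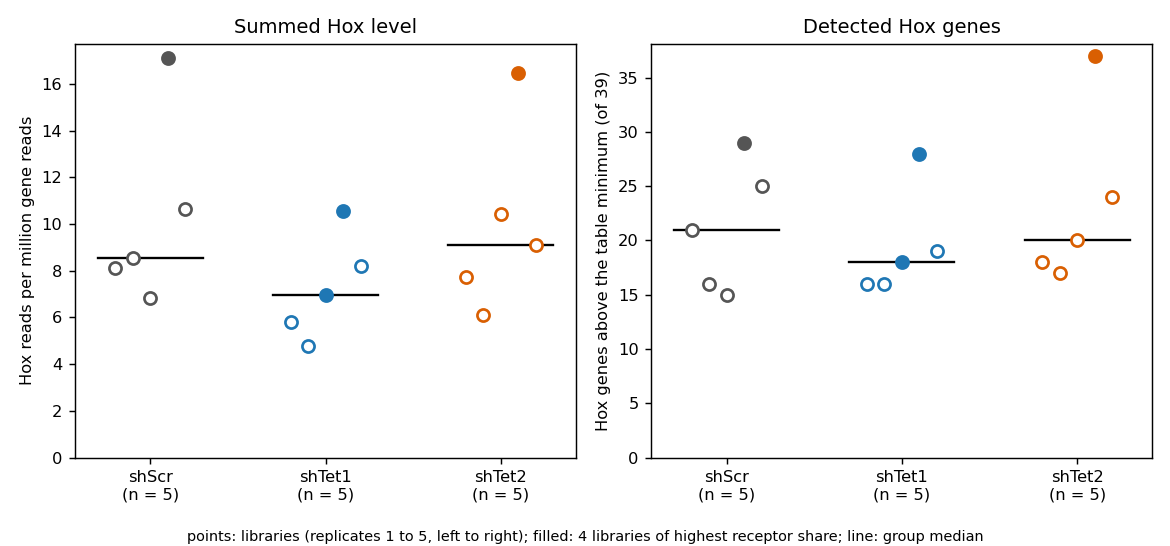
Summed Hox reads in RPM (left) and number of Hox genes above the table minimum (right) in each library, by group. Filled points are the 4 libraries of highest receptor share and lines are group medians (8.56, 6.96 and 9.10 RPM, and 21, 18 and 20 genes). The numbers of genes are not scaled to depth.

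Some members were read almost entirely in these 4 libraries. All reads of Hoxa2, Hoxa6, Hoxb6, Hoxc11 and Hoxd9 (4, 5, 5, 3 and 7 reads) came from them, as did 94.1% of the reads of Hoxc5 and 84.3% of those of Hoxc12. Other members went the other way. Hoxa5 had 6 reads, all of them in the other 11 libraries. The share was 23.3% for Hoxa10 and 25.3% for Hoxa13, below the 39.8% of all Hox reads. Without them 33 of the 39 genes had a read in at least 1 library. The leading genes were present in both sets. Mean levels in the other 11 libraries were 0.576 RPKM for Hoxc13, 0.557 for Hoxd13 and 0.322 for Hoxb9, and 7 of the 8 leading genes were among the 8 highest there, with Hoxa13 in the place of Hoxc12. Markers of differentiated cells did not stand apart in the 4 libraries as the receptor genes did. The 9 streak and mesoderm genes summed to 4.01 to 10.9 RPM there and 6.07 to 15.7 elsewhere, the 7 neural genes to 56.4 to 89.3 and 54.6 to 124, the 6 endoderm genes to 8.15 to 12.1 and 2.68 to 14.6, and the 12 fibroblast genes to 23.7 to 28.0 and 19.9 to 27.8. Of the 12 fibroblast genes, only Lum was at 0 in all 15 libraries. The other 11 were above the minimum in at least 5 libraries, and 5 of them in all 15. The part of the receptor share in the Hox levels was not tested.

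The comparison of shTet1 with shScr asked whether TET1 depletion changed Hox RNA. No Hox gene passed the test: 0 of the 26 tested genes had an adjusted p under 0.05 (limma, Benjamini-Hochberg over 19490 genes), where 0.0718% of all genes tested did. At an unadjusted p under 0.05, 2 Hox genes were lower and 0 higher, where 5.23% of all genes were lower and 11.8% passed in either direction. Differences were mostly negative. A total of 20 of 26 Hox genes were lower in shTet1, against 47.6% of all tested genes, and their median difference was −0.17 on the variance-stabilised log2 scale, against 0.01 over all genes. This scale compresses differences of genes with few reads. By cluster, the median was −0.31 over 8 Hoxa genes, of which 7 were lower, −0.06 over 5 Hoxb genes, −0.08 over 6 Hoxc genes and −0.21 over 7 Hoxd genes. Without shScr replicate 4 the medians were −0.27, 0.03, 0.10 and −0.15, so that those of Hoxb and Hoxc changed sign. By position it was −0.13 over 5 anterior, −0.08 over 8 central and −0.23 over 13 posterior genes. The 26 genes are those that passed the filter on low values, and without the filter 25 of 38 were lower with a median of −0.07. Without the 4 libraries of high receptor share the median of the 26 genes was −0.18 and 19 were lower. Without shScr replicate 4 alone 15 were lower and 11 higher, with a median of −0.10. In bulk RNA, fewer cells with Hox transcripts and less Hox RNA per cell cannot be told apart.

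Hoxa10, a posterior gene known for its part in uterine and lumbar patterning, had the smallest p. Its normalised reads (reads divided by the library's scaling factor) were 3.07, 15.1, 12.6, 11.1 and 15.4 in shScr replicates 1 to 5 and 0, 0.765, 0, 3.11 and 14.7 in shTet1. Replicates 1 to 3 of the Tet1 knockdown lay below every control library, whereas replicates 4 and 5 lay within the shScr range, replicate 4 just above its lowest library, so that the groups overlapped. On the deposited scale Hoxa10 was 4.67 ± 0.51 in shTet1 and 5.31 ± 0.28 in shScr (SD, n = 5 each), a difference of −0.64 (SE 0.22, 95% confidence interval −1.09 to −0.19, limma, Benjamini-Hochberg adjusted p = 0.223, exact permutation p = 0.0556). The value was lower in 5 of 5 same-numbered pairs. Replicate numbers were taken to pair the libraries of these groups, from the values and not from the labels. With the replicate number as a block in limma the adjusted p was 0.0461, where 4.8% of all genes passed. Hoxa10 was the only Hox gene to pass in that fit. It also passed without shTet1 replicate 5 (−0.84, adjusted p = 0.0453), and over all alternatives the adjusted p ran from 0.0453 to 0.514. Without the 4 libraries of high receptor share the difference was −0.55 (adjusted p = 0.491).

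Hoxa7, a trunk gene, followed. Normalised reads of Hoxa7 were 13.3, 16.3, 11.4, 17.8 and 12.3 in shScr and 0.730, 2.29, 5.11, 13.5 and 16.9 in shTet1. Replicates 1 to 3 of shTet1 lay below all shScr libraries, and replicates 4 and 5 lay within the shScr range. The difference was −0.40 on the log2 scale (SE 0.19, 95% confidence interval −0.80 to −0.01, limma, Benjamini-Hochberg adjusted p = 0.415). It was −0.84 within replicates 1 and 2 and −0.11 within replicates 3 to 5, a split that the labels do not name as a batch. For Hoxa10 the same differences were −0.77 and −0.56.

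**Figure D4:**
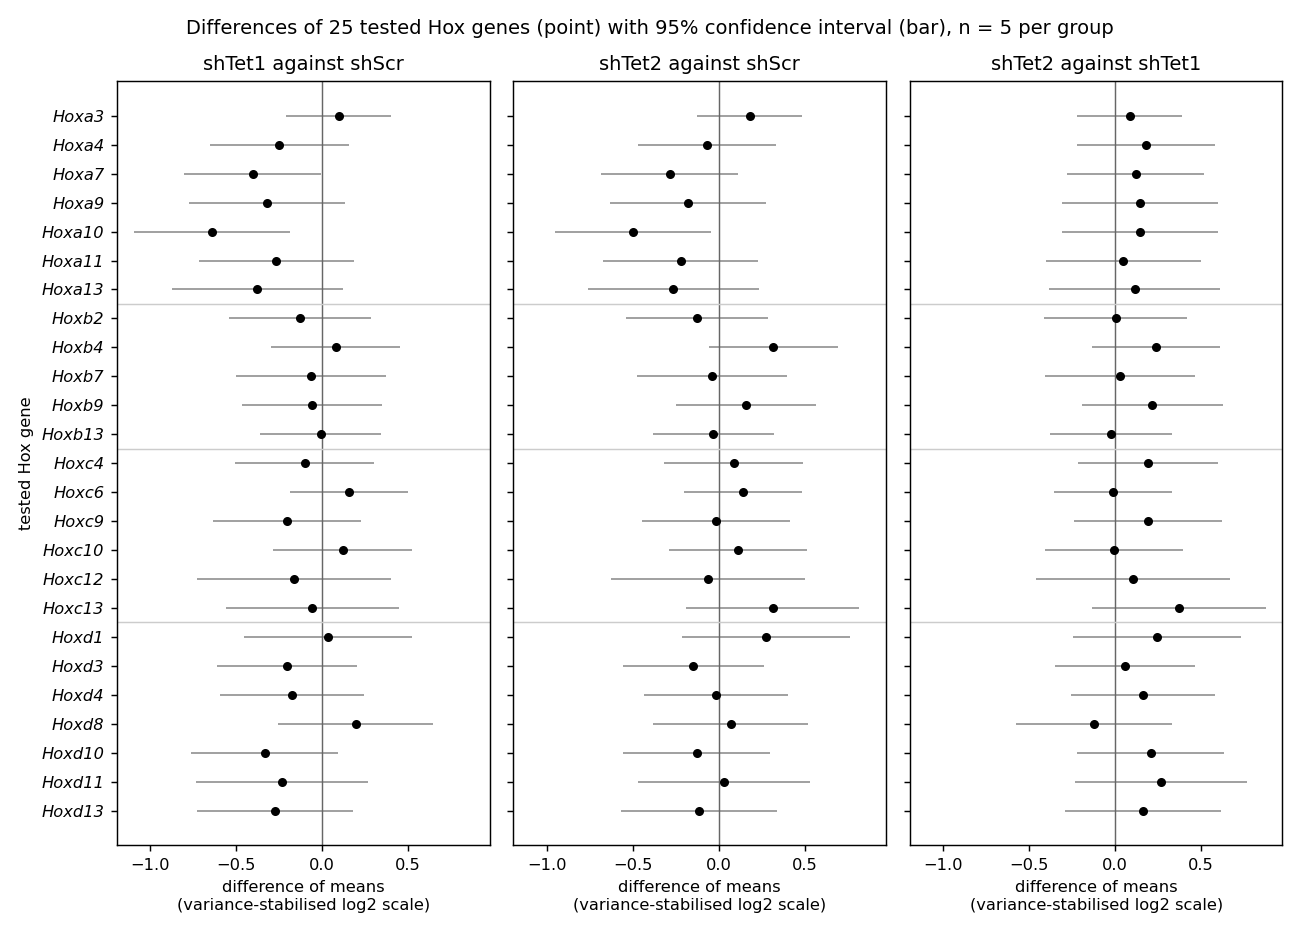
Difference of group means for 25 of the 26 tested Hox genes on the variance-stabilised log2 scale (points) with 95% confidence intervals (bars) in the 3 comparisons, 5 libraries per group. In shTet1 against shScr 19 of 25 points lie below 0, in shTet2 against shTet1 21 of 25 lie above 0 on the deposited scaling, fewer after quantile normalisation, and the intervals that leave out 0 are those of Hoxa10 in both knockdowns and of Hoxa7 in shTet1 against shScr.

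The confidence intervals set the limit of these statements. Over the 26 genes the SE of the difference between shTet1 and shScr ran from 0.15 to 0.27, and the intervals reached from −1.09 to 0.65. The interval of Hoxa10 was the only one to extend past 1 unit in either direction. The scale compresses genes of few reads, so these intervals do not bound the ratio of reads. With a pseudocount of 1 on recovered reads the log2 differences were −2.12 for Hoxa10 and −1.28 for Hoxa7.

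The comparison of shTet2 with shScr asked the same of TET2. Again 0 of 26 Hox genes passed (limma, Benjamini-Hochberg), where 0.39% of all genes tested did. At an unadjusted p under 0.05, 1 Hox gene was lower and 0 higher, where 3.58% of all genes were lower and 11.6% passed in either direction. With the replicate block 0 Hox genes passed, where 4.31% of all genes did. Signs were more mixed, with 16 of 26 Hox genes lower, against 43.2% of all genes, and a median of −0.04. The split depended on scaling, and 20 were lower after quantile normalisation and 19 after median centring. Without shScr replicate 4, the library with the most Hox RNA, 11 were lower and the median was 0.06. The Hoxa genes had a median of −0.20 with 7 of 8 lower, the Hoxb genes −0.03, the Hoxc genes 0.10 and the Hoxd genes −0.01. Without shScr replicate 4 the Hoxb and Hoxd medians were 0.10 and 0.01. Without the 4 libraries of high receptor share 15 of the 26 Hox genes were lower, and their median was −0.04.

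Hoxa10 again had the smallest p. Normalised reads in shTet2 were 0.791, 0.769, 7.39, 4.00 and 4.47, of which replicates 1 and 2 lay below all shScr libraries and replicates 3 to 5 between shScr replicate 1 and the other shScr libraries. It differed from shScr by −0.50 (SE 0.22, 95% confidence interval −0.95 to −0.04, limma, Benjamini-Hochberg adjusted p = 0.377, exact permutation p = 0.0317). The difference was negative in 5 of 5 same-numbered pairs, but in this comparison the numbers did not hold as pairs for replicate 3 (correlation 0.00789). Hoxa10 thus had the smallest p in both knockdowns, but both comparisons share the 5 shScr libraries and the second is not independent of the first. Hoxb4, which promotes expansion of blood stem cells, was the only one of the 3 to be higher. Its normalised reads were 3.07, 0, 3.43, 6.66 and 3.08 in shScr and 5.54, 1.54, 4.44, 11.4 and 14.5 in shTet2, so that 2 shTet2 libraries lay above the shScr range. The difference was 0.32 (SE 0.18, limma, Benjamini-Hochberg adjusted p = 0.533). Hoxa7 had 8.71, 2.31, 7.39, 11.4 and 13.4 normalised reads in shTet2, 4 of them below the shScr range, replicate 4 only just, with a difference of −0.28 (SE 0.19, limma, Benjamini-Hochberg adjusted p = 0.626).

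Between the knockdowns, 0 of 26 Hox genes passed (limma, Benjamini-Hochberg), where 4.24% of all genes tested did, and 0 had an unadjusted p under 0.05, where 15.7% of all genes did and 6.37% were lower. Of the 26 Hox genes 22 were higher in shTet2 and 4 lower, where 47.3% of all genes were lower. Their median difference was 0.14. After quantile normalisation 17 of 26 were higher and the median was 0.02, and after median centring 19 were higher. Without the 4 libraries of high receptor share 23 of 26 were higher, with a median of 0.10. All 8 Hoxa genes were higher in shTet2, with a median of 0.13. The smallest p belonged to Hoxc13, with 35.0, 18.4, 28.1, 45.6 and 19.2 normalised reads in shTet1 and 45.1, 26.2, 66.5, 61.1 and 32.4 in shTet2. Each shTet2 library lay above its same-numbered shTet1 library, but the ranges overlapped, with a difference of 0.37 (SE 0.24, 95% confidence interval −0.13 to 0.87, limma, Benjamini-Hochberg adjusted p = 0.524). In shScr Hoxc13 spanned both ranges, with 20.5, 10.04, 33.1, 72.1 and 36.0. Hoxb4 (0.24) and Hoxb9 (0.22) followed, with adjusted p = 0.606 and 0.692 in the same limma fit. Normalised reads of Hoxb4 in shTet1 were 0.730, 4.59, 5.11, 4.15 and 3.38. Hoxb9 had 13.1, 10.7, 21.7, 11.4 and 24.8 in shTet1, 16.6, 13.1, 29.6, 25.7 and 29.1 in shTet2 and 23.6, 6.27, 9.14, 29.96 and 26.7 in shScr, and the shScr libraries covered the range of both knockdowns. In no comparison did a tested Hox gene have values that did not overlap between groups, which 2.62%, 2.7% and 6.04% of all genes had.

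**Figure D5:**
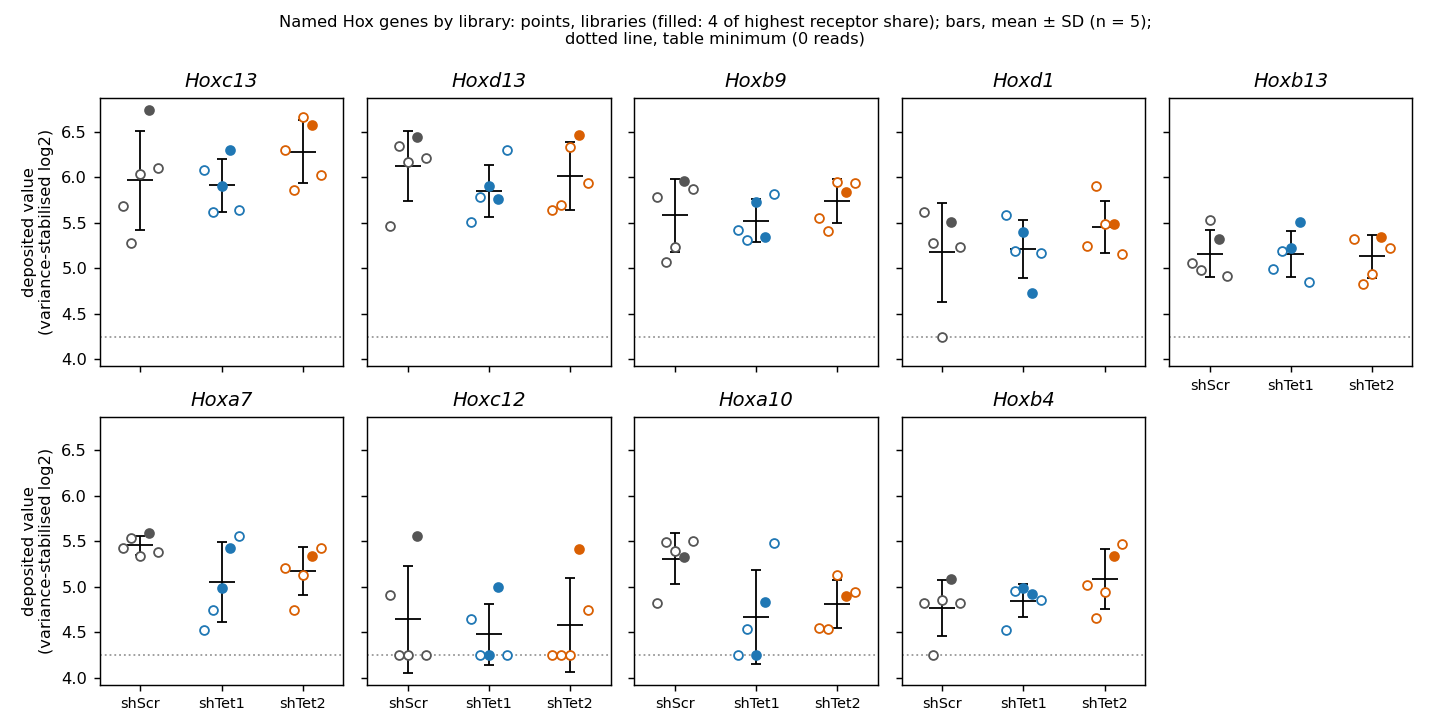
Deposited values (variance-stabilised log2 scale) of 9 Hox genes in each library by group, with mean ± SD (n = 5) and the table minimum of 4.25 as a dotted line. Filled points are the 4 libraries of highest receptor share. Of the 5 shTet1 libraries, replicates 1 to 3 lie below all shScr libraries for Hoxa10, and groups overlap in all 9 genes.

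The other leading genes showed the spread that a change would have to exceed. In shScr Hoxd13 had 14.3, 47.7, 38.8, 53.3 and 41.1 normalised reads, with 15.3, 23.7, 28.1, 22.8 and 45.1 in shTet1, and 19.0, 20.8, 47.3, 54.2 and 29.1 in shTet2. shScr replicate 1 was the lowest of all, and the other 4 shScr libraries lay above 4 of the 5 shTet1 libraries. The difference of shTet1 from shScr was −0.28 (SE 0.22) and that of shTet2 −0.11 (SE 0.22), with adjusted p = 0.685 and 0.906 (limma, Benjamini-Hochberg). In shScr Hoxd1 had 18.4, 10.04, 0, 15.5 and 9.24, with 17.5, 8.41, 12.8, 2.07 and 7.90 in shTet1, and 9.498, 27.7, 14.8, 14.8 and 7.83 in shTet2, and shScr replicate 3 was the only library without a read. In shScr Hoxb13 had 6.14, 5.02, 16.0, 11.1 and 4.11, with 5.11, 8.41, 8.94, 15.6 and 3.38 in shTet1, and 11.1, 3.08, 4.44, 11.4 and 8.95 in shTet2. Its means were close, with differences of −0.01 and −0.03 from shScr (95% confidence intervals −0.36 to 0.34 and −0.38 to 0.32). Hoxc12 had 0 reads in 9 of 15 libraries, and its highest values were 16.6, 5.18 and 13.1 in replicate 4 of shScr, shTet1 and shTet2.

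Most genes beside the clusters did not share their low levels. Of 25 genes beside the clusters, 23 were above the minimum in all 15 libraries, and their median level was 15.6 RPKM. Skap2 and Hibadh, which flank the Hoxa cluster, had 42.3 and 23.1, Mtx2 and Lnp, which flank Hoxd, had 24.2 and 7.69, and Smug1 and Calcoco1, which flank Hoxc, had 2.83 and 8.69. Beside Hoxb the levels spread widely, from 0.0989 for Skap1 and 1.55 for Ttll6 to 65.5 for Calcoco2 and 91.0 for Cbx1. The homeobox genes Evx1 and Evx2, which sit next to the posterior ends of Hoxa and Hoxd, had 0.0419 and 0.00359 and were the lowest of the 25. Skap1, Jazf1 (0.204) and Nfe2 (0.207) also lay below the highest Hox gene. No neighbour passed the test against shScr (limma, Benjamini-Hochberg), and 5 of 25 in shTet1 and 1 of 25 in shTet2 had an unadjusted p under 0.05, where 11.8% and 11.6% of all genes did. Atf2, a transcription factor gene near Hoxd, was higher in shTet2 than in shTet1 by 0.51 (SE 0.12, adjusted p = 0.0154), with 11.79 ± 0.12 against 11.28 ± 0.13 (SD, n = 5 each). Without the 4 libraries of high receptor share 0 of the 168 listed genes passed in that comparison. Of all genes 345 then passed, against 827 with them.

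The Polycomb and Trithorax machinery known to regulate Hox genes was present throughout. All 30 Polycomb genes and all 14 Trithorax and H3K27 demethylase genes were above the minimum in all libraries, with median levels of 8.55 and 13.9 RPKM. Eed, Suz12 and Ezh2, the core of Polycomb repressive complex 2, had 236, 84.0 and 34.4. Of these 44 genes 0 passed in any comparison. The smallest p among the Polycomb genes belonged to Cbx6 (−0.59 in shTet2 against shTet1, SE 0.18, limma, Benjamini-Hochberg adjusted p = 0.0776) and among the others to Ash1l (−0.61, adjusted p = 0.0645 in the same fit). Of 9 TALE homeobox genes, whose proteins bind DNA together with Hox proteins, all were above the minimum in all libraries, with Pbx2 (7.94) and Pknox1 (6.84) highest, and 0 passed (smallest p for Pbx2, 0.37 in shTet1 against shScr, SE 0.13, limma, Benjamini-Hochberg adjusted p = 0.251). Among 18 retinoic acid genes, which carry and read the signal that activates Hox genes in differentiating ESCs, the receptor gene Rarg (29.2) and the binding protein gene Crabp1 (15.9) were well above the Hox genes, whereas the degrading enzyme gene Cyp26a1 had 0.178. Of these 18 genes 0 passed, with the smallest p for Crabp1 (0.72 in shTet2 against shScr, adjusted p = 0.167 in the same fit). The 6 ParaHox and Cdx genes, close relatives and upstream activators of Hox genes, lay between 0.0140 and 0.181, and 0 of 5 tested passed.

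With the replicate block, which applies to the comparisons with shTet1, more genes of these lists passed. In shTet1 against shScr it was 8 of 168 listed genes, against 0 without it. They included 4 lower genes beside the clusters, 1 TALE gene (Pbx2, 0.37 higher, adjusted p = 0.0388 with the block) and 1 Trithorax gene (Mll3, 0.72 lower on the log2 scale, adjusted p = 0.0482). In shTet2 against shTet1 it was 18, against 2, with 3 lower Polycomb, 3 lower Trithorax and 3 higher retinoic acid genes. The share of all genes passing rose likewise, to 4.8% and 11.2%.

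Rows for other transcripts of the clusters were as low as the Hox genes. Hoxa11as had a read in 10 libraries and Hoxb3os in 6, at 0.0330 and 0.00753 RPKM, and neither differed by more than 0.23 on the log2 scale in any comparison (limma, smallest Benjamini-Hochberg adjusted p = 0.747). The clusters also hold microRNA genes, whose products target Hox mRNAs among others. A mature sequence of each (RefSeq, GRCm38.p6; the 5p arm of Mir10a and Mir196a, the 3p arm of Mir615) is shown with the seed, bases 2 to 8, in capitals.
Mir10a: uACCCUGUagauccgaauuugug
Mir196a-1 and Mir196a-2: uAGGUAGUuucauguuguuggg
Mir615: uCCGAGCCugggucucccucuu
The 5p products of Mir196a-1, in the Hoxb cluster, and Mir196a-2, in the Hoxc cluster, are identical. Mir10a, Mir196a-2 and Mir615 had 0 reads in all 15 libraries, and Mir196a-1 had 6 reads in 4 libraries. These rows count reads over the hairpin genes in libraries of long RNA and do not measure mature microRNAs.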

How the data were processed

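The deposited gene table held 1 column per library of variance-stabilised values on a log2-like scale, made by the authors with DESeq2 from reads trimmed with Trim Galore 0.3.3, aligned to mm9 with TopHat2 2.0.9 (1 position kept per read) and counted per gene in Seqmonk. Undoing the transformation gave whole reads (within 0.05) for 100% of values. Levels between genes were compared per kilobase of GENCODE exon. The deposited repeat table was not used.

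Differences were computed on the deposited log2 values by linear models in limma 3.58.1 under R 4.3.3 (lmFit, eBayes with trend, two-sided, all 15 libraries, group as the only term) for the 19490 genes above the minimum in at least 5 libraries, with Benjamini-Hochberg adjustment and a threshold of 0.05. The fit was tested on simulated data, in which all changed genes had far more reads than any Hox gene. That test therefore does not measure how well the fit detects changes of Hox genes. Named genes also got an exact permutation p (two-sided, 5 libraries a side), whose smallest possible p is 0.00794. Genes named with all values were the 8 of highest level and, per comparison, the 3 of smallest p. Values of 1 Hox gene are not reported here, although it stays in the fits, counts and sums. Other genes of the lists were named for a passed test, for the smallest p of their list, or for their level, the last after values were seen. The members and all gene lists (pluripotency, fibroblast, mesoderm, neural, endoderm, TALE, ParaHox, retinoic acid, Polycomb, Trithorax, cluster noncoding RNAs, neighbours, other homeobox genes) were chosen with earlier results of these data known. Same-numbered libraries deviated together from their group means in shTet1 and shScr (correlation 0.374 to 0.657) and in shTet2 and shTet1 (0.330 to 0.731), and numbers were taken to pair them. In shTet2 and shScr 1 pair failed (0.00789). The same correlation was not computed for libraries of different number. Library replicates correlated at 0.977 to 0.995. RNA came from either of a pair of extraction methods, and which library had which is not given in the sources used here.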

Additional observations from a re-analysis of the deposited data

Results flagged for a closer look

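Of 48 groups of 5 libraries examined (Hox genes of highest level or smallest p, the summed levels and the number of detected genes, in each group), 4 held a library far from the other 4 by Dixon's test; chance alone flags about 1 group in 20. Hoxd13 was 5.46 in shScr replicate 1, against 6.17 to 6.44 in the other shScr libraries, on the variance-stabilised log2 scale. Hoxa10 was 4.82 in the same library, against 5.32 to 5.51, so that the difference of the knockdowns from shScr would have been larger without it. Hoxd1 was 4.25, the table minimum, in shScr replicate 3, against 5.23 to 5.62. The number of Hox genes above the minimum was 28 in shTet1 replicate 4, against 16 to 19 in the other shTet1 libraries, and that library had 53.3 RPM of receptor reads. The part of the receptor share in this number was not tested.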

How the results depend on the processing

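Results were recomputed, where the setting applied, with the compared groups alone, without a filter, with a filter on all 15 libraries, without the variance trend, with median centring, quantile normalisation, array weights, pseudocounts of 1 and 10 on recovered reads, the receptor share as a covariate, the replicate block, and without each library. Leaving out the 4 libraries of high receptor share was added after seeing the data, and 0 listed genes then passed in any comparison. With the receptor share as a covariate 0, 1 and 5 did. Over all genes the numbers that passed without the 4 libraries were 1, 13 and 345, against 14, 76 and 827 with them. The count of Hox genes passing stayed at 0 except for 1 (Hoxa10) in shTet1 against shScr with the replicate block, and it ran from 0 to 1 (1 without shTet1 replicate 5) on leaving out single libraries there and was 0 to 0 in the other comparisons. With a pseudocount of 1 the median Hox difference between shTet1 and shScr was −0.50 and that between shTet2 and shTet1 was 0.44, since that scale does not compress low genes. On leaving out single libraries the medians on the deposited scale ran from −0.26 to −0.10, from −0.14 to 0.06 (shTet2 against shScr) and from 0.07 to 0.20, and the log2 ratio of summed Hox reads from −0.67 to −0.23, from −0.30 to 0.22 and from 0.20 to 0.63. The number of Hox genes above the minimum was 6 for all 15 libraries and 17 with 3 reads in 5 libraries. Listed genes that passed numbered 8 (shTet1) and 8 (shTet2 against shScr) with the replicate block and 18 for shTet2 against shTet1. In shTet2 against shScr, 1 passed with the strictest filter, 1 without the trend and 3 with array weights, and in shTet2 against shTet1 8 passed with array weights. Without single libraries the counts were 0 to 0, 0 to 1 (1 without shTet2 replicate 4) and 1 to 3 (1 without shTet1 replicate 2 or without shTet2 replicate 1, 2 or 4). For shTet2 against shScr the numbers did not pass as pairs in every case. The causes were not tested. Depth limits all statements on single Hox genes, most of which had under 10 reads per library.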

Other observations

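Other homeobox genes of the same class as Hox were low too, but less uniformly. Of 26 such genes outside the clusters 23 were tested, and their median level was 0.0736 RPKM. Gbx2, a midbrain-hindbrain boundary gene that ESCs also express, had 7.25, Nkx6-2 had 1.49 and En2 had 1.37, all above the highest Hox gene (0.690), whereas Dlx6 had 0.00273. En2 was 7.13 ± 0.41 in shTet2, 7.78 ± 0.20 in shTet1 and 7.57 ± 0.31 in shScr on the log2 scale (SD, n = 5 each), and the difference between the knockdowns was −0.65 (SE 0.20, limma, Benjamini-Hochberg adjusted p = 0.081). With the replicate block its adjusted p was 0.00544. No gene of this list passed without the block (0 of 23 in each comparison, with 1, 3 and 2 at an unadjusted p under 0.05, where 11.8%, 11.6% and 15.7% of all genes were). Cdx4 (0.41 higher in shTet2 than in shTet1) had an adjusted p of 0.262 in the same fit.

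Among markers of other cell states, Eomes, a gene of the primitive streak, averaged 6.45 ± 0.39 with the Tet2 hairpin and 7.39 ± 0.24 with the Tet1 hairpin, beside 6.59 ± 0.42 in shScr (SD, n = 5 each), and the knockdowns differed by −0.94 (SE 0.22, limma, Benjamini-Hochberg adjusted p = 0.0185). It was the only gene of the marker lists to pass without the block. It did not pass without the 4 libraries of high receptor share, where 345 of all genes passed, against 827 with them. Against shScr the differences of Eomes were 0.80 in shTet1 (adjusted p = 0.133, and 0.0176 with the block) and −0.14 in shTet2. Of the endoderm genes, 5 of 6 were lower in each knockdown, with medians of −0.23 in shTet1 and −0.53 in shTet2, and 0 passed. The smallest p belonged to Sox7 (−0.69 in shTet2 against shScr, adjusted p = 0.141). The other lists had 0 genes that passed without the block, with smallest p for Lin28a among pluripotency genes (−0.64 in shTet1 against shScr, adjusted p = 0.133), Pdgfra among fibroblast genes (−0.95 in shTet2 against shScr, adjusted p = 0.0535) and Nes among neural genes (0.61 in shTet2 against shScr, adjusted p = 0.463). With the block, which applies to the comparisons with shTet1, Lin28a passed in shTet1 against shScr (adjusted p = 0.0159) and in shTet2 against shTet1 (0.00598), and Pdgfra in shTet2 against shTet1 (0.0178).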
